A study of Mus musculus with 64 samples.

Results

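Whole spleen and whole bone marrow of the same anemic mice were compared across all genes, to describe how alike the 2 blood-forming tissues were when the demand for red cells was greatest. All whole-tissue libraries recorded as critical, the state called crisis below, were taken: 3 spleens and 3 bone marrows of 3 mice, which is 6 of the 64 RNA-seq libraries of the series. The mice were homozygous for the scat allele of Rasa3 (genotype scat/scat on the CbyJ.Cby-Rasa3(scat)/Llp background) and were 23 days (mouse 2608), 28 days (2629) and 26 days (2953) old. Young wild-type (WT) mice of that strain, +/+ at Rasa3 and 23 to 28 days old, gave 3 spleens and 3 marrows from 4 mice, 2 of which gave both tissues. No treatment is recorded for either group. The mutant allele was carried by every cell of the body and was studied on 1 inbred background, and effects of the anemia and of the mutation cannot be told apart. Whole tissue holds all cells of the organ, so that the comparison is one of organs and not of erythroblasts alone.

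In the mouse the bone marrow is the steady site of red cell production, and the spleen is the organ that expands when anemia drives stress erythropoiesis. Stress progenitors settle in the splenic red pulp, respond to erythropoietin, stem cell factor, BMP4 and hypoxia, and mature on macrophages that hand on iron and take up expelled nuclei. The marrow makes granulocytes beside red cells and is enclosed by bone, while the spleen also filters blood and holds lymphocytes. The product of Rasa3 turns off Ras and Rap1, small GTPases that pass on signals from receptors of blood cells.

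Values are the deposited normalised counts after rescaling of the 6 libraries by median ratio, given in the order of mice 2608, 2629 and 2953. A difference is log2(value + 1) in spleen minus that in marrow, from limma with the mouse as a block. A gene was called higher in a tissue at a Benjamini-Hochberg adjusted p under 0.05 over 16102 genes. A difference was called bounded within 2-fold where its 95% interval lay between -1 and 1, and "no overlap" marks genes whose 3 spleens all lay above or all lay below the 3 marrows. Before rescaling, the normalised counts of a library summed to between 65867100 and 98683600, over 17584 to 19202 genes. Tissue identity was checked on markers: the bone genes Ibsp and Bglap were listed at 0 in the spleens and were high in the marrows. The spleen regulators Tlx1 (8.66, 25.7 and 22.4 in the spleens) and Wt1 (22.3, 14.7 and 19.1) were listed at 0 in all 3 marrows. Both were low, with a mean over the 6 libraries under the 10 needed for a test, and were not tested. Of 7 spleen stroma and identity genes tested 1 was higher in spleen and 2 in marrow. The whole list of 16 had a lower summed level in the spleen than in the marrow of each mouse, against the sign of its median over the genes tested (log2 0.51): it summed to 1938 to 3594 in the spleens and 4232 to 6396 in the marrows, and 3 of its genes were listed at 0 in all spleens. Mitochondrial transcripts made up 2.89 to 3.41% of a spleen library and 5.09 to 6.84% of a marrow library. Adult globin transcripts made up 14.7 to 24.1% of a spleen library and 10.9 to 14.6% of a marrow library.

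The organs were alike in the broad order of their genes and differed in many genes by small amounts. Spleen and marrow of 1 crisis mouse correlated across genes at a Pearson r of 0.905 to 0.927, and their median absolute log2 difference was 0.55 to 0.71. Spleens of different crisis mice differed by 0.31 to 0.44, and marrows by 0.27 to 0.35, so each pair of organs from 1 mouse was further apart than each pair of mice within 1 organ. In the fit the median absolute log2 difference was 0.57, and 50.7% of the genes lay under 1.5-fold and 70.1% under 2-fold. Of 16102 genes, 7869 (48.9%) passed the test of a difference, 3804 (23.6%) higher in spleen and 4065 (25.2%) higher in marrow. For 8046 genes (50%) the 3 spleens and the 3 marrows did not overlap. The interval lay within 2-fold for 7145 genes (44.4%), of which 2951 also passed the test of a difference, and 4039 genes were neither called nor bounded.

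**Figure D1:**
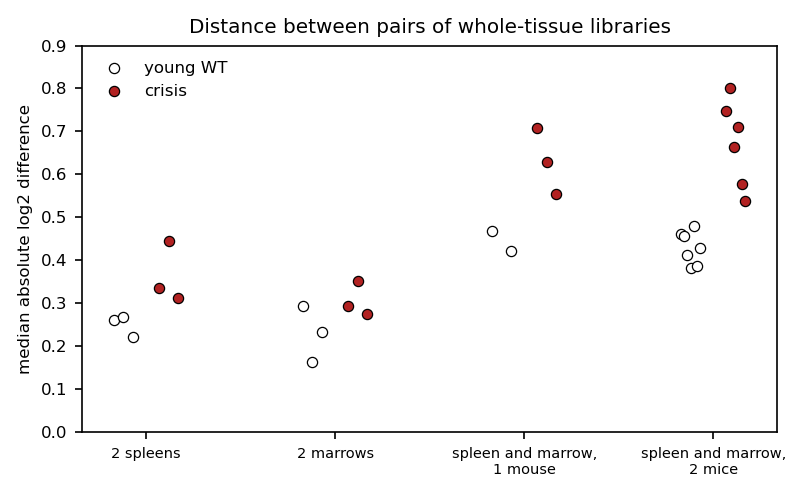
Median absolute log2 difference across genes for pairs of whole-tissue libraries, 1 point per pair, in crisis (filled) and young WT (open). Spleen and marrow of 1 crisis mouse lie at 0.55 to 0.71, above every pair of crisis spleens (0.31 to 0.44) and every pair of crisis marrows (0.27 to 0.35).

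The sizes of the differences were not symmetric. Genes higher in spleen had a median log2 difference of 0.62 and genes higher in marrow one of -1.62. By their point estimates 172 genes were over 4-fold higher in spleen and 1766 in marrow. Tested against a 2-fold bound with limma's treat, 49 genes (0.304%) were higher in spleen and 1343 (8.34%) in marrow. The split depended on the scale. With all libraries set to the same total, 17.9% of the calls were higher in spleen (1337 against 6129) in place of 48.3%, and the median of all genes moved by -0.38. A scale set by erythroid genes, those of the heme, membrane and maturation lists, was chosen after seeing the data. On it 0.907% of the calls were higher in spleen (113 against 12350), and the median moved by -1.08. Leaving out mouse 2629 lowered the genes higher in spleen from 3804 to 2462, and those over 2-fold from 49 to 15. Without the mouse as a block 2252 genes were higher in spleen. All directions below are relative to the median ratio over all genes, and in whole tissue fewer cells of a type and less RNA per cell cannot be told apart.

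**Figure D2:**
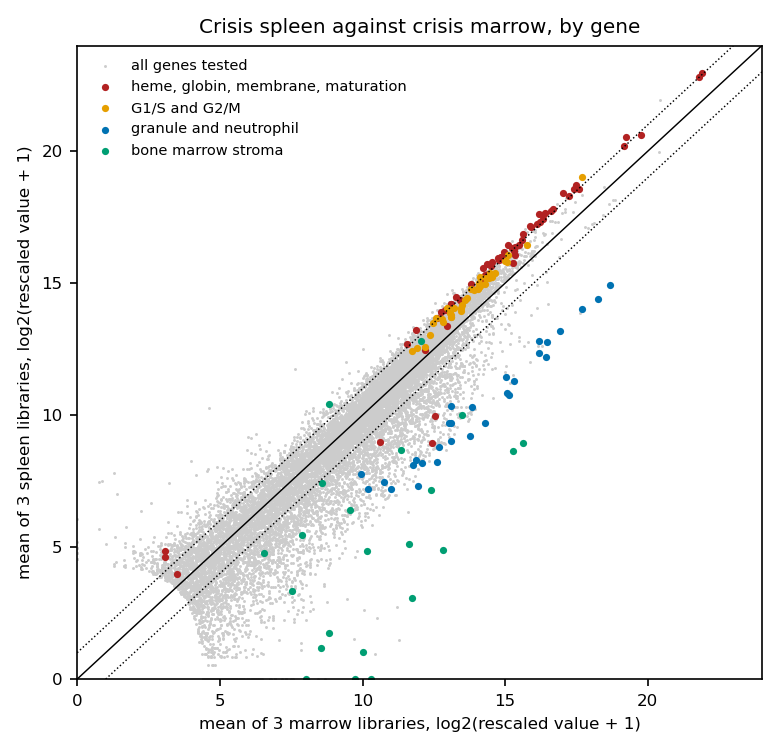
Mean of the 3 crisis spleens against the mean of the 3 crisis marrows for the 16102 genes tested, as log2(rescaled value + 1), with equality as a solid and 2-fold as dotted lines. Most genes of the heme, globin, membrane and maturation lists lie near the upper 2-fold line, G1/S and G2/M genes between it and equality on this scale, and granule, neutrophil and bone marrow stroma genes far below.

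Genes of the red cell program stood about 2-fold higher in spleen. Of 61 genes tested from the heme, globin, membrane and maturation lists, 54 were higher in spleen, 3 were higher in marrow and 4 did not pass. Their median log2 difference was 1.10. The SD was 0.20 among the 54 genes called higher in spleen, a selected set, and does not measure the spread of all 61. Over all genes tested the median was 0.00 and 23.6% were called higher in spleen. All 14 heme genes passed, 13 of them higher in spleen by 0.91 to 1.30 (list median 1.08, 2.12-fold), and within single mice the median was 1.13, 1.15 and 0.94. On the scale set by erythroid genes the heme median is near 0 by construction.

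Alas2, the erythroid enzyme that starts heme synthesis, measured 374832, 508029 and 289421 in the spleens and 199730, 205075 and 180490 in the marrows (log2 0.97, SE 0.14, adjusted p = 0.000965, no overlap). Slc25a37, the mitochondrial iron importer mitoferrin, measured 526147, 475149 and 287734 in the spleens and 205236, 175582 and 162628 in the marrows (log2 1.21, SE 0.14, adjusted p = 0.000377, no overlap). In both genes mouse 2953 had the lowest spleen and the smallest gap to its own marrow. The ferrochelatase gene Fech, which places the iron, differed by 1.13. Abcb10, a mitochondrial transporter of erythroid cells, had the largest difference of the list (log2 1.30, SE 0.11, adjusted p = 8.22e-05). The exception was Alas1, the housekeeping form of the first enzyme, with 681, 766 and 1588 in the spleens and 5394, 4922 and 7647 in the marrows (log2 -2.64, SE 0.14, adjusted p = 1.68e-05, no overlap). The erythroid and the housekeeping form of this enzyme thus stood on opposite sides.

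Promoter sequence is shown for 3 erythroid genes that were higher in spleen and for a granule and a stroma gene that were higher in marrow, each the called member of its list with the highest mean value among those with 1 annotated window. The 250 bases before the start are from RefSeq (GRCm38.p6), printed 5′ to 3′ on the gene's strand. Capitals mark AGATAA or TGATAA read on either strand, the letters that GATA factors are known to bind.
Alas2 (chrX:150547167-150547416, plus strand): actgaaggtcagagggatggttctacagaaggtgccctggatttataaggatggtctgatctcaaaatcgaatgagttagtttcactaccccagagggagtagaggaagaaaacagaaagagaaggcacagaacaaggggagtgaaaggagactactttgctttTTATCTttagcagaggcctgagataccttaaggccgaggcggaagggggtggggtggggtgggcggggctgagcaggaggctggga
Hbb-bs (chr7:103827929-103828178, minus strand): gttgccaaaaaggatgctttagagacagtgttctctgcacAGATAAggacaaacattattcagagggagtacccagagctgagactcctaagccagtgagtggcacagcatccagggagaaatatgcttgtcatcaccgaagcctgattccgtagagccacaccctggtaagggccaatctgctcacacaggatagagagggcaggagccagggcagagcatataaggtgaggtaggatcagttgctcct
Sptb (chr12:76710548-76710797, minus strand): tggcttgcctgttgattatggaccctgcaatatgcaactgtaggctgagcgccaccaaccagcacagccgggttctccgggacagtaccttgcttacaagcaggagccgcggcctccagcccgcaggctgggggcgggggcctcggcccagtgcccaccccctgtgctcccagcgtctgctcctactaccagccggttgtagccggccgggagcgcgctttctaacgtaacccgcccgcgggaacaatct
Mpo (chr11:87793534-87793783, plus strand): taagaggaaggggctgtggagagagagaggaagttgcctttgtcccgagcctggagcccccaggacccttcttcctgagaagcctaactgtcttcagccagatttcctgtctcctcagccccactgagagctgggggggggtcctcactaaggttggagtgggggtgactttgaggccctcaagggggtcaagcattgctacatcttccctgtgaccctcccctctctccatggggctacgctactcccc
Col1a2 (chr6:4505368-4505617, plus strand): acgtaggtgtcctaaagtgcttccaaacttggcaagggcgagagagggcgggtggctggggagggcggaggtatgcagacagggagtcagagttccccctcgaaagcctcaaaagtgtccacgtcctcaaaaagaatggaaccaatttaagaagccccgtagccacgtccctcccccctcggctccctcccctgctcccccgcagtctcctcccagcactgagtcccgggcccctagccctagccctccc
Alas2 and Hbb-bs each hold 1 match, and Sptb, also erythroid, holds 0, as do Mpo and Col1a2. Of the genes tested that have 1 window, 875 of 9155 (9.56%) held a match, and among all 32851 windows the share was 16.6%. The share was 9.04% among genes higher in spleen, 9.29% among genes higher in marrow and 8.31% among those bounded within 2-fold. By list, 5 of 6 globins, 6 of 12 membrane genes and 2 of 8 heme genes held a match. So did 7 of 12 genes of mast cells, basophils and eosinophils, which were higher in marrow, and 0 of 9 primary granule genes. A match is a description of letters in the window and not of binding.

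The 4 adult globin genes were higher in spleen by 0.81 to 1.01. Of all 7 globin genes tested, embryonic ones included, 2 were higher in spleen without the mouse as a block. On the scale set by erythroid genes 0 of the 7 were higher in spleen and 1 was lower. Hbb-bs, an adult beta globin, measured 8152780, 11256400 and 5316740 in the spleens and 3970460, 4515020 and 3302040 in the marrows (log2 1.01, SE 0.17, adjusted p = 0.00188, no overlap). Mouse 2953 was lowest in both tissues. Hba-a1, an adult alpha globin, differed by 0.96 (adjusted p = 0.00205). The paired alpha genes are near-identical copies, so the split of reads between Hba-a1 and Hba-a2 is uncertain. The embryonic globin genes did not pass and were low. Hbb-y measured 35.2, 25.3 and 22.6 in the spleens and 8.86, 7.03 and 6.59 in the marrows (adjusted p = 0.0681), and the highest value of Hbb-bh1 in any library was 64.8.

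Of 23 red cell membrane genes, 22 were higher in spleen by 0.49 to 1.38 (list median 1.18, 2.26-fold), against 3 on the scale set by erythroid genes, where the list is centred by construction. Slc4a1, the band 3 anion exchanger, measured 1505470, 1824470 and 1185060 in the spleens and 587089, 606726 and 646307 in the marrows (log2 1.27, SE 0.16, adjusted p = 0.000485, no overlap). The marrows lay within 587089 to 646307, a narrower range than the spleens. Genes of the spectrin skeleton moved by like amounts: Sptb, a spectrin, by 1.36, the ankyrin gene Ank1 by 1.26 and the adducin gene Add2 by 1.35. Car2, a carbonic anhydrase of red cells, differed by 1.13 and Epb41, protein 4.1 of the skeleton, by 1.06. Cd47, a signal against uptake by macrophages that many cell types carry, differed least (log2 0.49, SE 0.10, adjusted p = 0.00481) and was the 1 member bounded within 2-fold. Slc2a1, the glucose transporter GLUT1, went the other way with 564, 431 and 533 in the spleens and 1823, 1369 and 1554 in the marrows (log2 -1.63, SE 0.14, adjusted p = 8.4e-05, no overlap). In young WT tissue Slc2a1 differed by 0.31, and the difference between the states was -1.90, SE 0.18, adjusted p = 1.89e-05.

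Maturation genes, which act in the clearance of organelles and the remodelling of late erythroblasts, were higher in spleen in 15 of 17 cases (0.41 to 1.34). On the scale set by erythroid genes, where this list too is centred by construction, their median was -0.039 and 5 were lower. Tent5c, a poly(A) polymerase of erythroblasts, measured 193975, 320883 and 167459 in the spleens and 97044, 116146 and 100255 in the marrows (log2 1.07, SE 0.15, adjusted p = 0.000843, no overlap). The nuclear exporter gene Xpo7 differed by 1.23 and the ubiquitin ligase gene Trim10 by 1.20. Trim58, a ligase of terminal erythroid cells, had the largest difference of the list (1.34, adjusted p = 0.000255). Alox15, a lipoxygenase of reticulocytes that eosinophils and macrophages also express, measured 443, 295 and 717 in the spleens and 7945, 4032 and 4522 in the marrows (log2 -3.53, SE 0.29, adjusted p = 0.000259, no overlap). It was the 1 maturation gene higher in marrow. Of 14 genes of mast cells, basophils and eosinophils 13 were also higher in marrow and 1 in spleen, and their part in this value was not tested. Pink1, a kinase of mitochondrial clearance, did not pass (0.29, adjusted p = 0.109).

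**Figure D3:**
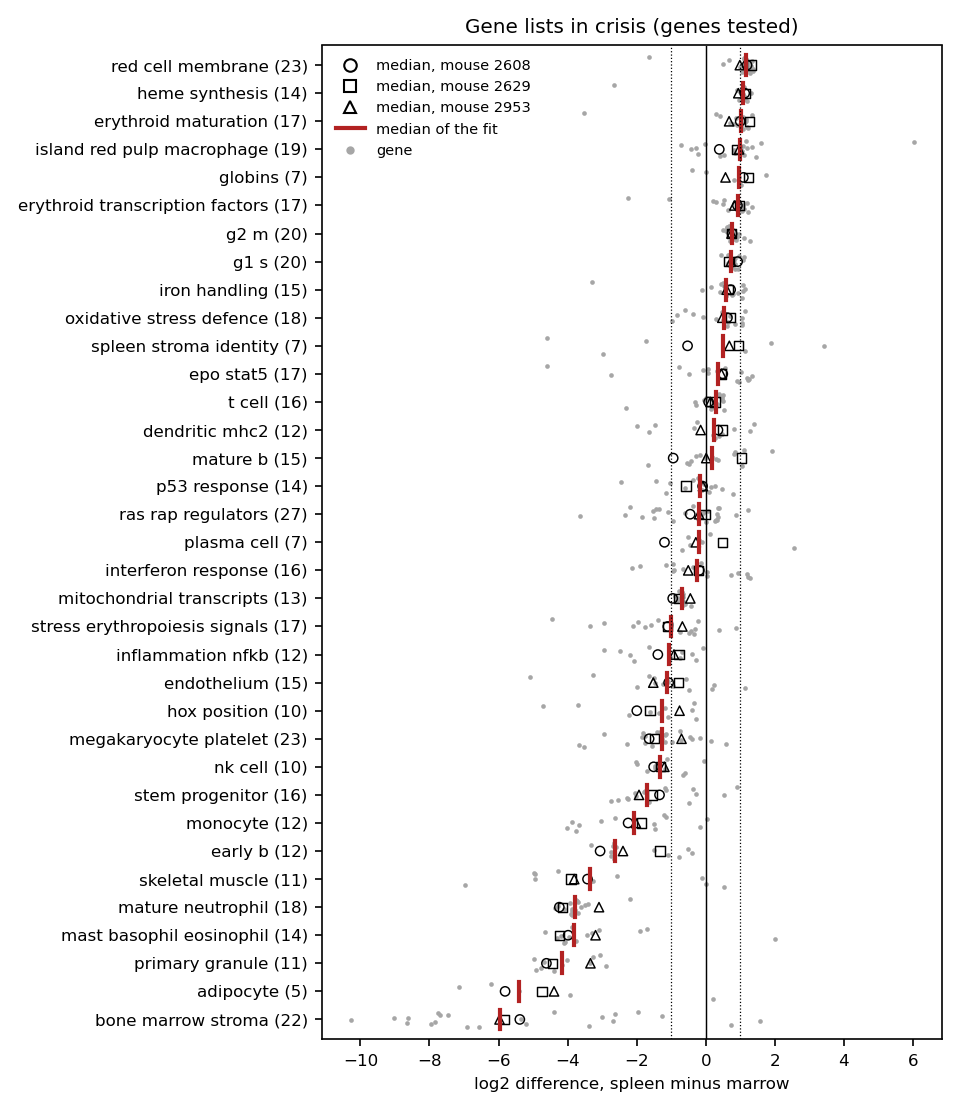
Log2 difference of spleen minus marrow in crisis for the lists with 5 or more genes tested, with genes as grey points, the list median of the fit as a red bar and its median in each mouse as open symbols. Erythroid lists lie near 1 and cell cycle lists near 0.75 on this scale. On the scale set by erythroid genes the globin and cell cycle medians fall below 0, and the maturation median is near 0 by construction. Granule, neutrophil, mast cell, adipocyte and bone marrow stroma lists lie at -3.78 or lower.

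Transcription factors of the erythroid line were higher in spleen in 13 of 17 cases, by 0.50 to 1.33, beside 23.6% of all genes. On the scale set by erythroid genes 0 of the 17 were higher and 7 were lower. E2f2, a cell cycle regulator of erythroblasts, measured 124727, 150354 and 119468 in the spleens and 66455, 66293 and 71907 in the marrows (log2 0.94, SE 0.11, adjusted p = 0.000432, no overlap). Klf1, the activator of adult beta globin, measured 49208, 34244 and 28431 in the spleens and 22648, 16687 and 14277 in the marrows (log2 1.05, SE 0.09, adjusted p = 7.7e-05, no overlap). Each mouse had its spleen above its marrow in both genes. Tal1, a partner of GATA1, differed by 1.23, Gata1 itself by 0.96 and Foxo3, which guards erythroblasts against oxidative stress, by 1.06. Sox6 had the largest difference (1.33, adjusted p = 0.000376). The factors of earlier progenitors were higher in marrow. Gata2 measured 239.8, 250.4 and 337 in the spleens and 988, 1487 and 1503 in the marrows (log2 -2.25, SE 0.18, adjusted p = 6.85e-05, no overlap). Myb measured 4117, 2777 and 5008 in the spleens and 12392, 5521 and 7803 in the marrows (log2 -1.07, SE 0.17, adjusted p = 0.00272, no overlap). Ldb1 (0.30, adjusted p = 0.0707) and Lyl1 (0.22, adjusted p = 0.12) did not pass and were bounded within 2-fold.

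Cell cycle genes were all higher in spleen on the main scale: 20 of 20 G1/S genes and 20 of 20 G2/M genes passed, whereas on the scale set by erythroid genes 0 were higher and 12 and 14 were lower. With all libraries set to the same total 16 of each list were still higher in spleen. Over all genes 23.6% were higher in spleen. Of the 40 genes 25 were bounded within 2-fold, as were 44.4% of all genes. Without rescaling 2 G1/S and 4 G2/M genes were bounded, and without the mouse as a block 0 and 3. List medians were 0.74 (1.67-fold) and 0.77 (1.71-fold). Within mice the medians were 0.92, 0.68 and 0.73 for G1/S and 0.76, 0.75 and 0.75 for G2/M genes. Both medians lay below those of the heme and membrane lists.

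Rrm2, a subunit of ribonucleotide reductase, measured 86447, 68814 and 50655 in the spleens and 42686, 36572 and 27251 in the marrows (log2 0.94, SE 0.09, adjusted p = 0.000145, no overlap). Its partner gene Rrm1 differed by 0.85 and Pcna, the replication clamp, by 0.74. Ccne1, a cyclin of the entry into S phase, had the largest difference of the G1/S list (1.10). Mki67, the proliferation marker, measured 677038, 543635 and 374189 in the spleens and 235092, 198337 and 199361 in the marrows (log2 1.30, SE 0.14, adjusted p = 0.000288, no overlap) and was the largest of the G2/M list. Mouse 2608, the youngest, was highest in both tissues for Rrm2 and Mki67. Top2a, a topoisomerase, differed by 0.70 and Ube2c, of the mitotic ubiquitin machinery, by 0.89.

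In young WT tissue the cell cycle lists did not lean to spleen. Their WT medians were 0.01 and -0.09, and 36 of the 40 genes had shifted toward spleen in crisis by the test of the difference between states, as had 9.85% of all genes. The shift of Top2a was 1.14, SE 0.23, adjusted p = 0.00336. Mki67 differed by 0.46 in WT, and its shift was 0.88, SE 0.29, adjusted p = 0.042. For the erythroid lists 3 of 61 genes passed that test, and their WT medians were 0.78 for heme, 1.27 for globins, 0.91 for membrane and 1.04 for maturation genes. The 3 were Slc2a1, the heme enzyme gene Cpox (0.52, SE 0.17, adjusted p = 0.0397) and the membrane gene Xk (0.75, SE 0.24, adjusted p = 0.0367), the last 2 toward spleen. The count of all genes that shifted toward spleen depended on the scale, at 3 on the deposited values without rescaling and 1611 with it.

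**Figure D4:**
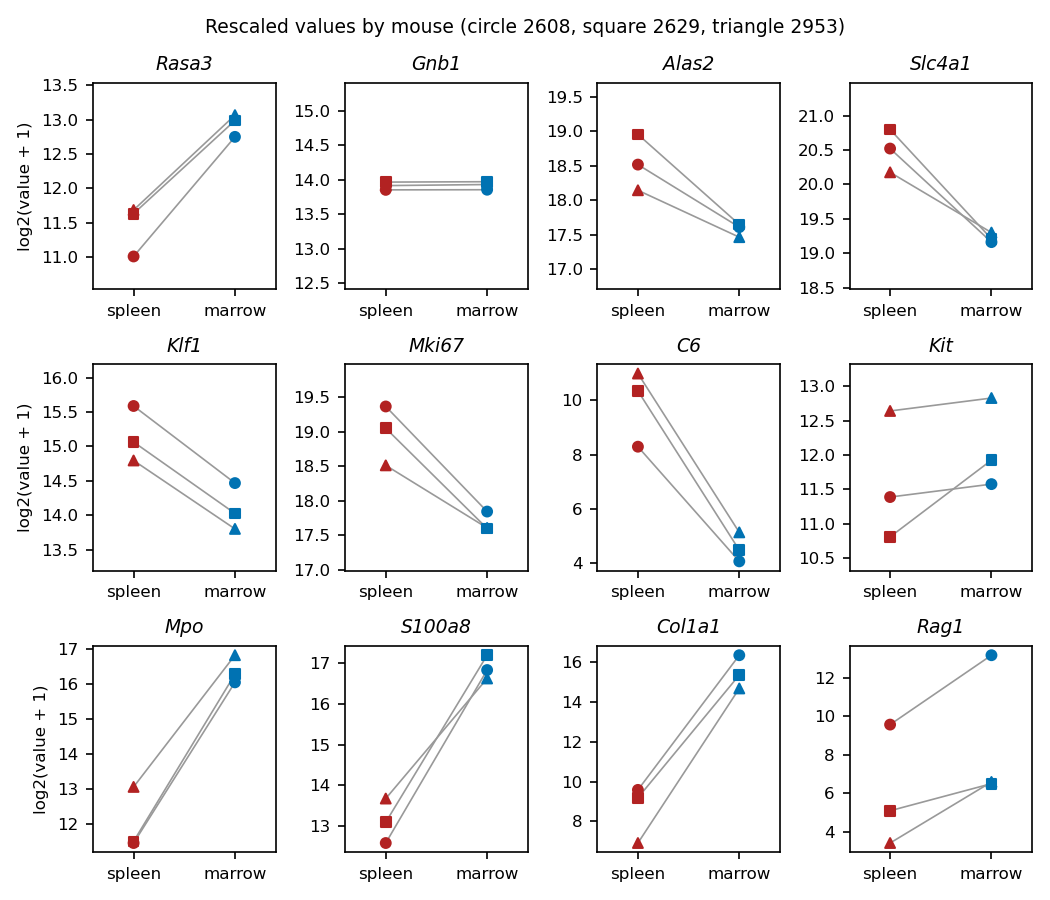
Rescaled values of 12 genes as log2(value + 1) in the spleen (red) and marrow (blue) of each crisis mouse, with lines joining the tissues of 1 mouse, and each panel on its own log2 axis. Gnb1 is level, Alas2, Slc4a1, Klf1, Mki67 and C6 fall from spleen to marrow in each mouse, Rasa3, Mpo, S100a8 and Col1a1 are higher in each marrow, and Rag1 in the marrow of mouse 2608 (9221) stands far above the other marrows (88.8 and 94.5).

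Genes of the erythropoietin response were divided. Of 17 genes of the erythropoietin and STAT5 list, 9 were higher in spleen (4 without the mouse as a block). Of the same 17, 3 were higher in marrow, and 6 were bounded within 2-fold. The shares of all genes were 23.6%, 25.2% and 44.4%. The list median was 0.36 on the main scale, -0.017 with libraries set to the same total and -0.71 on the scale set by erythroid genes. Pim1, a survival kinase induced by STAT5, measured 41477, 66253 and 43856 in the spleens and 23562, 26356 and 26226 in the marrows (log2 0.96, SE 0.13, adjusted p = 0.00075, no overlap). Bcl2l1, which protects erythroblasts from death, differed by 0.92 and the receptor gene Epor by 1.19. Erfe, the erythroblast hormone that releases iron, measured 20048, 41115 and 34356 in the spleens and 8693, 15812 and 16106 in the marrows (log2 1.23, SE 0.09, adjusted p = 5.75e-05, no overlap). Cish, a feedback inhibitor of the receptor, measured 11209.7, 40241 and 32914 in the spleens and 4877, 15023 and 14665 in the marrows (log2 1.26, SE 0.09, adjusted p = 4.75e-05, overlapping tissues). Mouse 2608 was lowest in both tissues for Erfe and Cish, and for Cish its spleen lay below the marrows of the other mice. Podxl, a surface sialomucin, had the largest difference (log2 1.34, SE 0.26, adjusted p = 0.00907), against -1.01 in WT. The genes higher in marrow were Spi1, the myeloid factor PU.1 (-2.75, adjusted p = 4.22e-05), Stat5b (-0.50) and the phosphate hormone gene Fgf23. Fgf23 measured 0, 55.6 and 3.72 in the spleens and 37.7, 245 and 391 in the marrows (log2 -4.59, SE 0.84, adjusted p = 0.00358, overlapping tissues).

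Iron genes were higher in spleen in 12 of 15 cases on the main scale (6 without the mouse as a block), in 7 with libraries set to the same total and in 0 on the scale set by erythroid genes, where 10 were lower. Of the 15, 8 were bounded within 2-fold, as were 44.4% of all genes, and 23.6% of all genes were higher in spleen. Tfrc, the transferrin receptor, measured 379981, 291176 and 469651 in the spleens and 199677, 123976 and 234137 in the marrows (log2 1.05, SE 0.11, adjusted p = 0.000219, no overlap). Mouse 2629 was lowest and mouse 2953 highest in both tissues. The ferritin genes Ftl1 and Fth1 differed by 0.58 and 0.76. Slc11a2, the endosomal iron transporter, had the largest difference (1.13, adjusted p = 5.95e-05). Trf, which encodes transferrin (-0.11, adjusted p = 0.64), and Ireb2, an iron sensor (0.15, adjusted p = 0.214), did not pass. Cp, the ferroxidase ceruloplasmin, was higher in marrow (log2 -3.30, SE 0.34, adjusted p = 0.000206). Hamp, the iron hormone hepcidin, was listed at 0 in the spleens and reached 4.53 in the marrows.

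Genes of other stress erythropoiesis signals were more often higher in marrow. Of 17 tested, 2 were higher in spleen and 11 in marrow (list median -1.0, against -0.12 in WT), beside 23.6% and 25.2% of all genes. Bmp4, the ligand that stress progenitors answer to, was listed at 0 in all 3 spleens and measured 33.1, 13.9 and 19.3 in the marrows. Its receptor gene Bmpr1a measured 35.9, 50.9 and 69.7 in the spleens and 349.8, 453 and 396 in the marrows (log2 -2.95, SE 0.30, adjusted p = 0.000208, no overlap). Id1, a direct target of BMP signalling, measured 89.1, 51.4 and 124 in the spleens and 669, 986 and 958 in the marrows (log2 -3.36, SE 0.31, adjusted p = 0.000149, no overlap). Marrow stroma and endothelium also express these genes. In the same libraries 20 of 22 stroma markers were higher in marrow and 1 in spleen. Of 15 endothelial markers 7 were higher in marrow, 1 was higher in spleen and 7 did not pass. The part of these cells in the values was not tested. Of the hedgehog genes, Ptch1 (0.88, adjusted p = 0.0034) and Smo (0.38, adjusted p = 0.0218) were the 2 higher in spleen. Kit, the receptor of stem cell factor, measured 2681, 1795 and 6378 in the spleens and 3054, 3888 and 7266 in the marrows (log2 -0.50, SE 0.19, adjusted p = 0.0755, overlapping tissues) and was bounded within 2-fold without passing the test of a difference. Kitl, its ligand, was higher in marrow (-1.0, adjusted p = 0.0344). Nr3c1, the glucocorticoid receptor (-0.33, adjusted p = 0.0147), and Hif1a, a hypoxia factor (-0.74, adjusted p = 0.00264), were also higher in marrow, the former within 2-fold.

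Rasa3 itself, the mutated gene (chr8:13566948-13677603, GRCm38, minus strand), measured 2064, 3176 and 3294 in the spleens and 6881, 8113 and 8564 in the marrows. It was lower in spleen by 2.76-fold (log2 -1.49, SE 0.11, adjusted p = 4.37e-05, no overlap). The level does not show which allele was transcribed and is no check of the genotype labels. In young WT tissue the order was opposite, with 13582, 13079 and 13501 in the spleens and 8182, 7929 and 8396 in the marrows on the scale of 12 libraries (log2 0.72). The difference between the states was -2.16, SE 0.19, adjusted p = 1.15e-05. On that scale the crisis marrows (6840.2, 8107 and 8602) overlapped the WT marrows, and the crisis spleens (2136, 3297 and 3375) lay below all others. In sorted megakaryocyte-erythroid progenitors (MEP) of these mice Rasa3 differed by -0.18 (adjusted p = 0.359), and in stem and myeloid progenitors (SMP) by -0.59 (adjusted p = 0.0438).

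Of 27 regulators of Ras and Rap, 7 were higher in spleen (2 without the mouse as a block), 11 were higher in marrow, and 12 were bounded within 2-fold. Over all genes the shares were 23.6%, 25.2% and 44.4%. Without mouse 2629, 2 were higher in spleen and 11 in marrow. With libraries set to the same total 2 were higher in spleen and 16 in marrow, and on the scale set by erythroid genes 0 and 25. Sipa1, a Rap1 GTPase-activating protein, measured 15294, 11692 and 7898 in the spleens and 12863, 10276 and 10756 in the marrows (log2 0.00, SE 0.14, adjusted p = 0.986, overlapping tissues). Rapgef1, an activator of Rap1, differed by 0.26 (adjusted p = 0.0393). The Rap1 genes stood on opposite sides, with Rap1b higher in marrow (log2 -0.94, SE 0.09, adjusted p = 0.000149) and Rap1a higher in spleen (0.30, adjusted p = 0.0242). Rap1gap, which inactivates Rap1, had the largest difference toward spleen (log2 1.22, SE 0.16, adjusted p = 0.00066). Rasgrp4, an exchange factor of mast and myeloid cells, had the largest toward marrow (log2 -3.65, SE 0.20, adjusted p = 2.84e-05). Of other genes for inactivators of Ras, Rasa2 (-1.54), Rasa4 (-1.45) and Rasal3 (-1.08) were higher in marrow. Rasa1 (-0.12, adjusted p = 0.371) and Nf1 (-0.04, adjusted p = 0.805) did not pass and were bounded within 2-fold. Of the 27, 12 had shifted toward marrow in crisis and 0 toward spleen, while 16.2% and 9.85% of all genes had. Neutrophil and monocyte markers were higher in marrow in the same libraries, and their part in these values was not tested.

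Granulocyte genes set the organs far apart. All 29 genes of the primary granule and mature neutrophil lists were higher in marrow, as 25.2% of all genes were, by medians of -4.17 (18.0-fold) and -3.78 (13.7-fold). Mpo, the myeloperoxidase of promyelocytes whose promoter is printed above, measured 2779, 2871 and 8488 in the spleens and 68022, 79990.3 and 116749 in the marrows (log2 -4.40, SE 0.20, adjusted p = 2.27e-05, no overlap). Elane and Prtn3, proteases of the same granules, differed by -4.91 and -4.77. Ngp, of secondary granules, measured 17508, 26591 and 48927 in the spleens and 358705, 478739 and 415927 in the marrows (log2 -3.87, SE 0.25, adjusted p = 0.000143, no overlap). S100a9, a calprotectin subunit, measured 14052, 19640.3 and 30895 in the spleens and 291139, 372813 and 263596 in the marrows (log2 -3.90, SE 0.26, adjusted p = 0.00019, no overlap). The spleen of mouse 2953 held the highest value among spleens for each of these 5 genes, and the neutrophil medians within mice were -4.24, -4.15 and -3.09. Retnlg had the largest difference of the neutrophil list (-4.36) and Il1b, an inflammatory cytokine, the smallest (-2.2). The summed neutrophil list was 67541 to 166762 in the spleens and 1321050 to 1727870 in the marrows. In young WT tissue the medians were -3.76 and -3.48. In crisis 3 of 11 primary granule and 3 of 18 neutrophil genes had shifted further toward marrow, beside a shift of 16.2% of all genes toward marrow.

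Genes of mast cells, basophils and eosinophils were higher in marrow in 13 of 14 cases, beside 25.2% of all genes. Prg2, the eosinophil major basic protein, measured 3226, 1697 and 7410.3 in the spleens and 70871, 43962 and 65088 in the marrows (log2 -4.10, SE 0.33, adjusted p = 0.000628, no overlap). Epx, eosinophil peroxidase, differed by -4.08 and Ms4a2, a receptor subunit of basophils and mast cells, by -4.66. Ccr3, the eotaxin receptor, was the exception with 1323, 3984 and 2547 in the spleens and 946, 546 and 392 in the marrows (log2 2.01, SE 0.52, adjusted p = 0.0327, no overlap). It did not pass with libraries set to the same total, on the scale set by erythroid genes, with no filter on low values, without trend and robust estimation, or without mouse 2629 or mouse 2953. The mast cell proteases Cma1 and Tpsb2 were higher in marrow in crisis (-3.08 and -1.90) and higher in spleen in WT (3.21 and 3.56). For Cma1 the difference between the states was -6.25, SE 0.80, adjusted p = 0.000152. Of 12 monocyte genes 10 were higher in marrow. Lyz2, lysozyme, measured 13278, 15338 and 16153 in the spleens and 210268, 232302 and 163617 in the marrows (log2 -3.75, SE 0.14, adjusted p = 7.14e-06, no overlap). F13a1, a coagulation factor of monocytes, had the largest difference (-4.02). Csf1r, the receptor of monocytes and macrophages (-0.18, adjusted p = 0.574), and Treml4 (0.04, adjusted p = 0.863) did not pass. The WT median of the monocyte list was -0.12, and all 12 genes had shifted toward marrow in crisis, beside 16.2% of all genes.

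Stem and progenitor genes were higher in marrow in 10 of 16 cases and higher in spleen in 0. Over all genes 25.2% were higher in marrow and 23.6% in spleen. Cd34 measured 262, 171 and 333 in the spleens and 1350.1, 1466 and 1487 in the marrows (log2 -2.53, SE 0.22, adjusted p = 9.4e-05, no overlap). Erg, a factor of stem cells and of endothelium, measured 196, 249 and 344 in the spleens and 1815, 1596 and 1761 in the marrows (log2 -2.74, SE 0.20, adjusted p = 4.61e-05, no overlap). In both genes the marrows lay close together and well above every spleen. Flt3, a receptor of lymphoid-primed progenitors, differed by -1.63. Megakaryocyte genes were higher in marrow in 16 of 23 cases. Thbs1, a thrombospondin of platelets and monocytes, measured 1162, 1417 and 2679 in the spleens and 15641, 20340.4 and 20618 in the marrows (log2 -3.51, SE 0.18, adjusted p = 2.9e-05, no overlap). Plek, a kinase substrate of platelets and leukocytes, differed by -1.57 and F5, coagulation factor V, by -3.67. The platelet genes Pf4 (log2 -1.19, SE 0.20, adjusted p = 0.00232) and Itga2b (-0.97) differed less. Gp9 (0.15, adjusted p = 0.551) and Gp1ba (-0.39, adjusted p = 0.235), of the platelet receptor for von Willebrand factor, did not pass, and both were bounded within 2-fold. Vwf was the 1 member higher in spleen (log2 0.58, SE 0.14, adjusted p = 0.011). The list median was -1.27 in crisis and -1.83 in WT.

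Bone and cartilage gave the largest differences among the lists. Of 22 marrow stroma genes 20 were higher in marrow, beside 25.2% of all genes, with a list median of -5.95 (62.0-fold). Col1a1, the collagen of bone, measured 766, 582 and 119 in the spleens and 83848, 42073 and 26319 in the marrows (log2 -6.91, SE 0.31, adjusted p = 0.000114, no overlap). Sparc, a bone matrix protein, differed by -3.37. Ibsp, bone sialoprotein, was listed at 0 in the spleens and measured 1356, 1169 and 1216 in the marrows. Cxcl12, the chemokine that holds stem cells in the marrow, measured 90.5, 167 and 170.2 in the spleens and 3975, 8408 and 3910.0 in the marrows (log2 -5.20, SE 0.23, adjusted p = 8.97e-06, no overlap). Acp5, the acid phosphatase of osteoclasts and some macrophages, was the 1 member higher in spleen (log2 0.73, SE 0.10, adjusted p = 0.000695), and Postn, a matrix protein, did not pass (1.56, adjusted p = 0.164). The largest differences toward marrow were Ibsp, Tnc, H19, Bglap, Igf2, Col2a1, Bglap2, Igfbp5, Mgp and Col11a1, genes of bone, cartilage and growing tissue. Tnc, the matrix protein tenascin C (chr4:63959785-64047015), measured 3.06, 0 and 2.38 in the spleens and 3000.2, 3121 and 1290.1 in the marrows. Igf2, a fetal growth factor (chr7:142650766-142666816), measured 5.67, 0 and 0 in the spleens and 559, 1193 and 763 in the marrows, and its imprinted neighbour H19 (chr7:142575529-142578143) 2.77, 0 and 0 in the spleens and 1586, 1894 and 629 in the marrows. Of 5 fat genes tested 4 were higher in marrow. Cfd, the adipocyte protease adipsin, was listed at 0 in the spleens and measured 112, 173 and 146 in the marrows. Scd1, a fatty acid desaturase that other cells also express, did not pass and was bounded within 2-fold, with 3887, 3373 and 2589.6 in the spleens and 4269, 1941 and 2710.4 in the marrows. Of 11 muscle genes 7 were higher in marrow, and Acta1, skeletal actin, measured 0, 0 and 4.73 in the spleens and 235, 160.4 and 286 in the marrows.

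Markers of splenic stroma were low, and 7 of them reached the level tested. Stab2, a scavenger receptor of sinusoids, measured 1410.1, 2334 and 2497 in the spleens and 664, 1168 and 1019 in the marrows (log2 1.13, SE 0.12, adjusted p = 0.000262, no overlap) and was the 1 member higher in spleen. Meox1, a homeobox gene, was listed at 0 in the spleens and measured 55, 20.9 and 10.7 in the marrows. Of 15 endothelial genes 7 were higher in marrow and Stab2 alone was higher in spleen, beside 25.2% and 23.6% of all genes. Pecam1 (-0.49, adjusted p = 0.332) and Eng (0.17, adjusted p = 0.284), which some blood cells share with endothelium, did not pass, and Emcn, endomucin, had the largest difference (-5.08). Of 10 Hox genes tested 5 were higher in marrow and 0 in spleen, beside the same 25.2% and 23.6% of all genes. Hoxa9 did not pass (-0.29, adjusted p = 0.332), while Hoxa7 (-1.09) and Hoxb4 (-2.22) were higher in marrow. Of the pancreatic acinar genes Cela1 alone was tested (1.56, adjusted p = 0.00119), and the others reached at most 22.2 in any library.

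Among genes with a value of at least 100 in every spleen, C6 stood highest, a component of the complement attack complex (chr15:4727175-4814967), with 313, 1304 and 2035 in the spleens and 15.8, 21.4 and 34.3 in the marrows (log2 5.31, SE 0.39, adjusted p = 5.43e-05, no overlap). After it came the potassium channel genes Kcnj16 (4.19) and Kcna2 (3.61), Adamdec1, Raver2 (3.26), Dgki (3.25), the collagen gene Col14a1 (3.2) and the complement gene C2 (2.85). The immunoglobulin kappa segments Igkv4-59 and Igkv4-70 closed the 10, both at 2.80, and their reads may be shared with related segments. Adamdec1, a metalloprotease of macrophages and dendritic cells, measured 379, 4691 and 5228 in the spleens and 99, 253 and 240.1 in the marrows (log2 3.52, SE 0.54, adjusted p = 0.00557, no overlap). For C6 and Adamdec1 the spleen of mouse 2608 was far below the other spleens.

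Macrophage genes of the red pulp and of erythroblast islands were higher in spleen in 13 of 19 cases with the mouse as a block, beside 23.6% of all genes. Without the block 2 were higher in spleen, and on the scale set by erythroid genes 1 was higher and 7 were lower. Vcam1, the adhesion molecule of island macrophages, measured 9527, 25313 and 39458 in the spleens and 5268, 8964 and 9470.5 in the marrows (log2 1.47, SE 0.22, adjusted p = 0.00298, no overlap). Spic, the factor of red pulp macrophages, measured 1269, 2565 and 4068 in the spleens and 616, 1507 and 1187 in the marrows (log2 1.19, SE 0.19, adjusted p = 0.00214, overlapping tissues). In both genes mouse 2608 was lowest in each tissue, and its spleen was the lowest of the spleens also for C1qa, Cd163 and Mertk. Marco, of the marginal zone, had the largest difference with 170.2, 143 and 65.9 in the spleens and 0, 4.98 and 0 in the marrows (log2 6.03, SE 0.81, adjusted p = 0.000743, no overlap). The iron exporter gene Slc40a1 (0.41) and the heme oxygenase gene Hmox1 (0.52) were bounded within 2-fold, and Axl, a receptor for dying cells, differed by 1.10. Cd68 (-0.44) and Siglec1 (-0.72) were higher in marrow, and Adgre1, which encodes F4/80, did not pass (-0.27, adjusted p = 0.208). Within mice the list median was 0.39, 0.90 and 0.97, against 2.2 in WT, and 6 of the 19 genes had shifted toward marrow, beside 16.2% of all genes.

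T cell genes set spleen above marrow in young WT mice and in crisis gave 2 calls in 16. All 16 were higher in spleen in WT (median 4.15), and all 16 had shifted toward marrow, beside 16.2% of all genes. In crisis 1 was higher in spleen (Lck, a kinase of the receptor, 0.54, adjusted p = 0.00514), 1 was higher in marrow (Cd3d, -2.32, adjusted p = 0.0013) and 8 (50%) were bounded within 2-fold, as were 44.4% of all genes. The crisis median of 0.31 was -0.065 with libraries set to the same total and -0.76 on the scale set by erythroid genes, where 10 of the 16 were higher in marrow and 1 was bounded. Tcf7, a T cell factor, measured 443, 1435 and 1559 in the spleens and 412, 1189 and 1466 in the marrows (log2 0.16, SE 0.13, adjusted p = 0.369, overlapping tissues). Cd3e, a chain of the receptor complex, measured 164, 619 and 509 in the spleens and 70.9, 488 and 517 in the marrows, and its difference was 5.82 in WT (difference between states -5.26, SE 0.78, adjusted p = 0.000567). The list summed to 5037 to 10505 in the crisis spleens and 5571 to 10254 in the marrows, with mouse 2608 lowest in both. All 10 natural killer genes tested had shifted toward marrow as well, from a median of 1.73 in WT to -1.32, and 7 were higher in marrow in crisis. Il2rb, a receptor subunit, differed by -0.66 (adjusted p = 0.0305), and Gzma, granzyme A, by -1.69.

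Antigen presentation genes of the dendritic cell list had a median of 0.24 in crisis, which turned to -0.14 with libraries set to the same total and to -0.83 on the scale set by erythroid genes, where 9 of 12 were higher in marrow. The MHC class II genes Cd74, H2-Aa and H2-Ab1 differed by 0.27, 0.38 and 0.21 in crisis and did not pass, against 3.05, 3.39 and 2.93 in WT. Cd74, the invariant chain, measured 13309, 20664 and 12008 in the spleens and 10556, 13925 and 12735 in the marrows. Of 12 genes of the dendritic cell list 10 had shifted toward marrow, beside 16.2% of all genes. Xcr1 (1.41) and Zbtb46 (1.28), of conventional dendritic cells, were higher in spleen. Siglech, of plasmacytoid cells (-2.0), Flt3 and Cd209a (-1.46) were higher in marrow.

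B cell genes differed most between mice. Rag1, which cuts antigen receptor genes in precursors, measured 755, 32.8 and 9.56 in the spleens and 9221, 88.8 and 94.5 in the marrows (log2 -2.73, SE 0.44, adjusted p = 0.00205, overlapping tissues). Igll1, of the pre-B receptor, measured 149, 10.5 and 1.35 in the spleens and 1731, 33 and 16.9 in the marrows. The marrow of mouse 2608, the youngest of the 3, stood far above the others in both. Cd93, which early B cells share with other progenitors and endothelium (log2 -2.66, SE 0.13, adjusted p = 9.12e-06), was higher in marrow, and Ebf1, the factor of B cell commitment (-0.78, adjusted p = 0.434), did not pass. Of 12 early B genes 7 were higher in marrow with all mice, 4 without mouse 2608 and 2 without the mouse as a block. With all mice 25.2% of all genes were higher in marrow. The mature B list had medians within mice of -0.94, 1.03 and 0.01, so its direction differed between mice. Ighm, the heavy chain of IgM, measured 38428, 50415 and 36587 in the spleens and 77858, 10083 and 10282 in the marrows (log2 1.04, SE 0.73, adjusted p = 0.309, overlapping tissues). Cd79a, of the receptor complex, measured 3962, 2740.5 and 1518 in the spleens and 15812, 1658 and 1711 in the marrows (log2 -0.48, SE 0.57, adjusted p = 0.532, overlapping tissues). Cr2, of marginal zone B cells, was higher in spleen (log2 1.93, SE 0.29, adjusted p = 0.00149), as were Bank1 (0.82) and Cxcr5 (1.10), and Cd37 was higher in marrow (-1.67). Without mouse 2608 there were 5 such genes higher in spleen in place of 3. Jchain, the joining chain of secreted IgM and IgA, measured 3387, 5744 and 3287 in the spleens and 764, 735 and 544 in the marrows (log2 2.57, SE 0.16, adjusted p = 2.98e-05, no overlap). Xbp1, of secretory cells, was higher in marrow (-0.67).

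Of 12 genes of the NF-kB list 9 were higher in marrow and 0 in spleen, and 9 had shifted toward marrow against WT, while 25.2% of all genes were higher in marrow and 16.2% had shifted. Monocyte genes were higher in marrow in 10 of 12 cases and had shifted in 12 of 12 in the same libraries, and their part in these values was not tested. Nfkb1, a subunit of the factor, measured 3284, 4506 and 4329.8 in the spleens and 8382, 8125 and 8769.6 in the marrows (log2 -1.07, SE 0.11, adjusted p = 0.000236, no overlap). Nfkbia, its inhibitor, differed by -2.08 and Rela, another subunit, by -0.29. Ccl3, a chemokine, had the largest difference (-2.96, adjusted p = 0.0102). Of 16 interferon genes 5 were higher in spleen (2 without the mouse as a block) and 6 higher in marrow (3 without it), beside 23.6% and 25.2% of all genes. On the scale set by erythroid genes 0 were higher in spleen and 12 in marrow. Rsad2, an antiviral enzyme, measured 127471, 193074 and 84549.7 in the spleens and 55707, 56882 and 45448 in the marrows (log2 1.28, SE 0.16, adjusted p = 0.000696, no overlap). Isg15 (1.22), Usp18 (1.18), Ifit1 (0.93) and Irf7 (0.73) were the others higher in spleen. Oas2 (-2.14, adjusted p = 0.00109) and Mx1 (-1.90, adjusted p = 0.00177), antiviral effectors, were higher in marrow.

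Of 18 genes of oxidative stress defence 13 were higher in spleen and 10 were bounded within 2-fold, beside 23.6% and 44.4% of all genes. With libraries set to the same total 6 were higher in spleen, and on the scale set by erythroid genes 0 were. Gpx1, a peroxidase abundant in red cells, measured 279395, 307560 and 236652 in the spleens and 188258, 182345 and 160135 in the marrows (log2 0.63, SE 0.10, adjusted p = 0.00185, no overlap). Prdx2, the peroxiredoxin of red cells, differed by 1.05, Cat, catalase, by 0.85 and Nqo1 by 1.15. G6pdx, which supplies NADPH (log2 -0.96, SE 0.09, adjusted p = 0.000173), Gsr (-0.83) and Prdx6 (-0.38) were higher in marrow. Of 14 p53 targets 1 was higher in spleen and 4 in marrow, where 23.6% and 25.2% of all genes were. Btg2 was higher in spleen (0.79), and Trp53inp1 (-1.15), Cdkn1a (-0.60), Pmaip1 (-1.05) and Fas (-2.45) were higher in marrow. Mdm2, a p53 target that restrains it, did not pass (0.09, adjusted p = 0.565). All 13 mitochondrial transcripts were higher in marrow (median -0.67), with 8 bounded within 2-fold, beside 25.2% and 44.4% of all genes. Of the 13, 10 passed without the mouse as a block and 9 without trend and robust estimation. Without mouse 2608 8 passed, and in the fit that included young WT libraries 5 did. The cytochrome oxidase transcript mt-Co1 measured 993807, 1103860 and 997901 in the spleens and 1373710, 1610480 and 1172630 in the marrows (log2 -0.41, SE 0.12, adjusted p = 0.0272, no overlap). The largest difference was that of mt-Nd2 (-0.88).

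The genes nearest to equality, among those with a mean of at least 1000, were of general function. Gnb1, a G protein subunit (chr4:155491361-155559269), measured 14782, 15985 and 15429.7 in the spleens and 14804, 16047 and 15599 in the marrows (log2 -0.01, 95% interval -0.20 to 0.18). Spcs2, of the signal peptidase, had an interval of -0.19 to 0.20. Atp1b3, a sodium pump subunit (-0.20 to 0.18), and Ganab, a glucosidase of the endoplasmic reticulum (-0.18 to 0.21), were as narrow, as were Prr14, Cpsf7, Npepps and Dcaf7. With all libraries set to the same total each of these 8 was lower in spleen, by values of -0.39 to -0.36.

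In the fit of 12 libraries, with the mouse as a random block, 2271 of 16359 genes (13.9%) were higher in WT spleen and 2111 (12.9%) in WT marrow. The median absolute log2 difference was 0.36 in WT and 0.59 in crisis, and 8642 genes were bounded within 2-fold in WT against 7134 in crisis. Spleen and marrow of 1 WT mouse lay 0.42 to 0.47 apart, in 2 mice, and correlated at a Pearson r of 0.917 to 0.919, which is inside the crisis range of 0.905 to 0.927. The difference itself had changed toward spleen for 1611 genes (9.85%) and toward marrow for 2642 (16.2%). Without rescaling these counts were 3 and 251, while the authors' regularised log2 values gave 1639 and 2618. For 429 genes the tissues differed in both states with opposite signs. Low values moved in 3 or 4 step sizes in the crisis libraries and in 1 to 4 in the WT libraries. The source of these steps is not known, and their part in the difference between states was not tested.

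**Figure D5:**
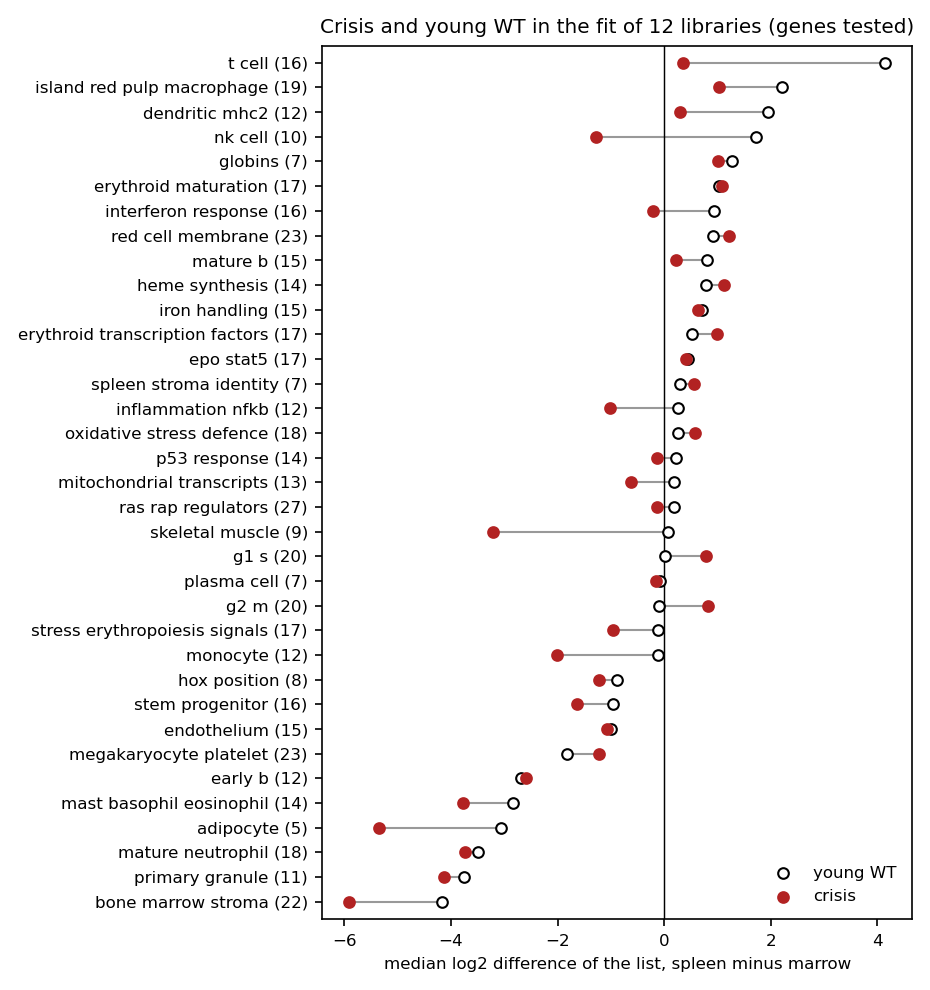
Median log2 difference of spleen minus marrow for each list with 5 or more genes tested, in young WT (open) and crisis (filled), both from the fit of 12 libraries. T cell, dendritic and natural killer lists lie to the right in WT and near or below 0 in crisis, and neutrophil and granule lists hold their place at or below -3.48. Cell cycle lists move from near 0 to about 0.8, a direction that the scale set by erythroid genes turned in the crisis comparison.

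The genes with the largest change of the tissue difference were Igf2, Nipal1, Mcpt1, Dapl1 and Gpr83 toward marrow and Loxl2, Arpp21, Abca4, Cacna1b and Rsph9 toward spleen. Igf2 measured 5.87, 0 and 0 in crisis spleens and 556, 1192 and 766 in crisis marrows. In WT it measured 1.49, 33.5 and 11.8 in the spleens and 10.6, 91.4 and 44.3 in the marrows, so the crisis marrows were the high group. Mcpt1, a mucosal mast cell protease, measured 254, 169 and 271 in WT spleens and 18.2, 3.72 and 0 in crisis spleens, with at most 4.4 in any marrow. Nipal1, a magnesium transporter gene, measured 187, 176 and 157 in WT spleens and 0, 22.8 and 34.3 in crisis spleens. For both the WT spleens were the high group. Rsph9, a gene of the ciliary spoke, measured 715, 738 and 601 in WT marrows and 318, 51.6 and 60.0 in crisis marrows. Cacna1b, a calcium channel gene, measured 137, 127 and 131 in WT marrows and 41.5, 2.49 and 4.31 in crisis marrows. Here the WT marrows were high, and among crisis marrows mouse 2608 was highest, as it was for Rag1.

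Sorted progenitors of the same 3 mice were set beside whole tissue. In MEP 607 of 13736 genes (4.42%) differed between spleen and marrow and 89.4% lay under 2-fold, with a median absolute log2 difference of 0.16. In SMP, Kit-positive CD34-positive cells that were low in CD16/32 and lacked lineage markers and Sca, 2952 of 15107 genes (19.5%) differed and the median was 0.41. Median differences of the lists in MEP were 0.10 for heme, 0.06 for membrane, 0.14 for G1/S and 0.11 for G2/M genes. In SMP the same lists stood at 1.11, 1.54, 0.42 and 0.48. Each set was rescaled alone, and the difference from whole tissue was not tested.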

How the data were processed

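RNA-seq libraries of whole tissue were made from total RNA with an mRNA kit, per the labels' protocols. The submitters' processing notes name Bowtie2 2.2.0, RSEM, DESeq2 and GRCm38, without settings. The deposited table of normalised counts is used as a signal scaled by the authors between libraries: its low values move in 1 to 4 step sizes a library, so whole reads were not recovered and no count model was fitted. These steps give an estimated 27949500 to 58049200 reads per crisis library. The deposited regularised log2 table, a shrunken log2 scale made by the authors, served as an alternative.

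The 6 crisis libraries were rescaled by median ratio, and the 16102 of 26286 genes whose mean reached 10 were tested with limma 3.58.1 in R 4.3.3 on log2(value + 1), with the mouse as a fixed block, trended and robust empirical Bayes, two-sided, and Benjamini-Hochberg adjustment over all genes tested. Both libraries of a pair came from 1 mouse, and their deviations correlated at 0.31, 0.14 and 0.31. Likeness was read from unadjusted 95% intervals. Young WT libraries entered a separate fit of 12 libraries with the mouse as a random block. The scripts were tested on simulated data.

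Named genes were Rasa3, the 10 largest differences each way with a value of at least 100 in every library of the higher tissue, the 8 narrowest intervals, the 5 largest changes between states each way, and from each list the 3 members with the highest mean and the largest difference each way; other genes named were chosen after their values were seen. Members and lists were chosen with earlier results of these data known. Symbols came from RefSeq for 25607 IDs; the list genes Ahsp, Ighd and Hoxd4 were not analysed here. Some list members are counted but not reported here by name. Alternatives covered scaling, pseudocount, filter, block, empirical Bayes settings, the table used and each mouse left out.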

Additional observations from a re-analysis of the deposited data

Results flagged for a closer look

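The difference between spleen and marrow was compared between crisis and young WT by the interaction term of the limma fit over 12 libraries. At a Benjamini-Hochberg adjusted p under 0.05 it had changed toward spleen for 1611 genes and toward marrow for 2642. The 11 genes flagged here passed and were picked from these. They are Rasa3 and the 5 largest changes each way with at least 100 in every library of the highest group. The change of the log2 difference is given for each. Toward spleen it was 3.76 for Loxl2, 3.60 for Arpp21, 3.37 for Abca4, 2.99 for Cacna1b and 2.88 for Rsph9. Toward marrow it was -6.90 for Igf2, -6.84 for Nipal1, -6.58 for Mcpt1, -6.41 for Dapl1, -6.29 for Gpr83 and -2.16 for Rasa3. Arpp21, Dapl1 and Rasa3 passed under every alternative run. Loxl2 missed the threshold under 9 of them and Cacna1b under 10.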

How the results depend on the processing

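Genes higher in spleen (3804) numbered 1337 with libraries set to the same total, 2178 without trend and robust estimation and 113 on the scale set by erythroid genes, and 2462 to 3468 with 1 mouse left out (lowest without mouse 2629). Genes higher in marrow (4065) numbered 6129 and 12350 on those 2 scales and 2963 to 3874 with a mouse left out. Genes bounded within 2-fold (7145) numbered 2917 on the erythroid scale and 6046 to 7269 with a mouse left out. Genes over 2-fold higher in spleen (49) numbered 86 without rescaling, 74 scaled by the 75th percentile, 23 without trend and robust estimation and 21 on the erythroid scale, and 15 to 126 with a mouse left out (126 without mouse 2608, 96 without mouse 2953). Those higher in marrow (1343) numbered 2202 with the same total, 859 without both and 4383 on the erythroid scale, and 914 to 1340 with a mouse left out. Shifts between states toward spleen (1611) and marrow (2642) fell to 3 and 251 without rescaling and ran over 931 to 1568 and 1998 to 2624 with 1 mouse or WT library left out. The median absolute difference (0.57) was 0.49 at a mean of at least 100, 1.10 on the erythroid scale and 0.55 to 0.62 with a mouse left out. Without the mouse as a block, counts were 2252 genes higher in spleen, 20 over 2-fold higher in spleen and 943 shifted toward spleen.

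On the scale set by erythroid genes, which centres those genes by construction, list medians turned to -0.12 for globins, -0.039 for maturation, -0.13 for erythroid factors, -0.71 for the erythropoietin list, -0.49 for iron, -0.090 for macrophages, -0.76 for T cells, -0.83 for dendritic cells, -0.90 for mature B cells, -0.53 for spleen stroma, -0.33 for G1/S, -0.30 for G2/M and -0.55 for oxidative stress. With the same total the erythropoietin list turned to -0.017, T cells to -0.065, dendritic cells to -0.14 and mature B cells to -0.21. Muscle genes turned to 0.010 and spleen stroma to -0.93 at a mean of at least 100, where fewer genes were tested. Mature B cells turned to -0.19 without mouse 2629. For the other changes the cause was not tested. Of the named genes' values under alternatives, 416 kept their direction and side of the threshold, 16 newly passed (the 8 genes nearest to equality on the scale of equal totals and on the erythroid scale) and 2 no longer did (Igkv4-59 and Igkv4-70 without trend and robust estimation). The number of mice, 3, limits the precision.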
